A study of Mus musculus with 24 samples.

Results

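Loss of Bmal1 throughout the body was examined in mouse liver at circadian time CT14, early in the subjective night. The comparison took the 3 knockout and the 3 wild-type libraries labelled CT14, 6 of the 24 libraries of the series, and gives knockout minus wild type throughout. Wild-type (WT, Bmal1+/+) and global knockout (KO, Bmal1-/-) mice came from crosses of Bmal1+/- mice on the C57BL/6J background. Liver RNA with poly(A) tails was sequenced with a stranded kit. The same genotypes were collected at CT2, early in the subjective day, and these libraries serve below to ask whether an effect differed with time. A second line of mice was collected at CT14 as well: F mice had floxed Bmal1 alleles (Bmal1 f/f) and no Cre, and LKO mice carried Alb-Cre and Bmal1 f/f, so that Bmal1 was deleted where the albumin promoter drives Cre, chiefly in hepatocytes. The labels give neither age nor sex. They do not say whether each library of a group came from its own animal, and otherwise the p-values cover only library-to-library spread, which may be technical.

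BMAL1 pairs with CLOCK or NPAS2, binds E-box sequences and switches on the Per and Cry genes, whose proteins then block the same pair. It also drives the REV-ERB receptors (Nr1d1, Nr1d2) and the PAR bZIP factors Dbp, Tef and Hlf. REV-ERBs repress, and ROR receptors activate, genes with a ROR response element (RORE), Bmal1 and Npas2 among them, while PAR bZIP factors and their opponent NFIL3 act on D-boxes. In liver these loops impose daily rhythms on sterol, lipid, glucose and drug metabolism.

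The total estimated counts of the 6 libraries ran from 111493087 to 127231830 (88995259 to 131544733 over all 24). Of 56941 genes in the table, 20514 passed the filter on low counts and were tested. Levels are given as CPM, read counts relative to the size of each library after TMM scaling, effects as log2 fold changes ± standard error (SE), and a gene is said to have risen or fallen where the Benjamini-Hochberg adjusted p of edgeR's quasi-likelihood test was under 0.05. Correlations of log2 levels across genes were 0.955 to 0.968 within the groups and 0.944 to 0.952 between them. One knockout library, KO replicate 3, stood apart in interferon-stimulated and cholangiocyte genes, and KO replicate 1 in a list of spermatid genes. Results that touch these libraries are given with and without them. In bulk liver, fewer cells of a type and less RNA per cell cannot be told apart.

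Bmal1 itself (ENSMUSG00000055116), the deleted gene, did not differ at this time. Its level was 6.46, 2.93 and 8.16 CPM in wild type and 7.10, 6.66 and 7.53 CPM in the knockout, a log2 fold change of 0.28 ± 0.35 (adjusted p = 0.791). The groups overlapped, so the genotype label could not be checked from Bmal1 at CT14. At CT2, in other libraries of the same genotypes, Bmal1 was at 31.9 ± 1.66 CPM in wild type and 7.39 ± 0.216 CPM in the knockout, a change of -2.11 ± 0.36 (adjusted p = 0.00576).

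The largest response among the clock genes was in Npas2, which encodes the partner that can stand in for CLOCK. Npas2 was close to undetectable in wild type, at 0.0657, 0.0357 and 0.07 CPM in wild type and 27.3, 24.7 and 23.6 CPM in the knockout, and rose 432-fold (log2 8.75 ± 0.41 (adjusted p = 4.66e-11)). Every knockout library lay far above every wild-type library. Clock, the usual partner of BMAL1, was at 21.8, 27.0 and 25.2 CPM in wild type and 42.7, 52.8 and 31.6 CPM in the knockout, with groups that did not overlap, but its change of 0.78 ± 0.49 (adjusted p = 0.457) did not pass the test. Bmal2 was at most 0.506 CPM in any of the 6 libraries and did not pass (2.04 ± 1.35 (adjusted p = 0.49), and adjusted p = 0.0334 without WT replicate 3). Of the 4 activators 1 therefore rose and 0 fell, where 3.15% of all tested genes rose, 2.15% fell and 5.31% did either.

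Among the 8 repressors of the loop, 4 fell and 1 rose (62.5%, where 5.31% of all tested genes were called). Per3, a PERIOD gene, was at 20.5, 21.4 and 27.3 CPM in wild type and 4.005, 3.71 and 2.88 CPM in the knockout, a log2 fold change of -2.71 ± 0.33 (adjusted p = 3.52e-05). Per2, a PERIOD gene at the centre of the feedback loop, was at 50.2, 60.3 and 69.7 CPM in wild type and 14.8, 35.2 and 15.6 CPM in the knockout and fell by less (-1.46 ± 0.34, adjusted p = 0.0133). KO replicate 2 held more Per2 than the other knockout libraries, and the Per2 call was lost without WT replicate 3 or KO replicate 1 or 3 (adjusted p = 0.0545 to 0.0801). Per1 was at 30.5, 34.6 and 28.8 CPM in wild type and 18.8, 9.53 and 18.5 CPM in the knockout, with groups that did not overlap, and did not pass (-1.004 ± 0.61, adjusted p = 0.437). Ciart, also called CHRONO, a repressor that binds BMAL1, was at 11.4, 16.7 and 6.48 CPM in wild type and 0.174, 0.234 and 0.0628 CPM in the knockout and fell 72.6-fold (-6.18 ± 1.10, adjusted p = 0.00172). Bhlhe41 (DEC2), a repressor that competes for E-boxes, was near the detection limit in the knockout at 1.14, 2.09 and 2.21 CPM in wild type and 0.0457, 0 and 0 CPM in the knockout (-6.86 ± 1.296, adjusted p = 0.00243). Its relative Bhlhe40 (DEC1) did not pass (-0.74 ± 0.27, adjusted p = 0.139). Cry1, a cryptochrome repressor, moved the other way from the Per genes. Its level was 26.6, 22.1 and 30.1 CPM in wild type and 68.2, 58.1 and 54.3 CPM in the knockout, a rise of 1.196 ± 0.19 (adjusted p = 0.000369). Cry2 did not pass (0.28 ± 0.16, adjusted p = 0.397).

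Both REV-ERB genes fell. Nr1d2 was at 54.6, 49.9 and 44.6 CPM in wild type and 4.84, 2.11 and 3.93 CPM in the knockout, the smallest p among clock genes after Npas2 (-3.78 ± 0.34, adjusted p = 6.09e-07). Nr1d1 was at 26.2, 18.7 and 17.1 CPM in wild type and 2.16, 1.33 and 2.21 CPM in the knockout (-3.44 ± 0.56, adjusted p = 0.000707). In both, every knockout library lay below every wild-type library. Rora, a ROR receptor, did not pass (0.32 ± 0.45, adjusted p = 0.819).

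The PAR bZIP output factors split by size of effect. Dbp was at 27.7, 38.3 and 22.05 CPM in wild type and 3.65, 1.22 and 1.89 CPM in the knockout (-3.71 ± 0.55, adjusted p = 0.000289). Tef was at 150.3, 169 and 163 CPM in wild type and 81.9, 63.0 and 58.3 CPM in the knockout (-1.25 ± 0.18, adjusted p = 0.000152). Both fell in every knockout library relative to every wild-type library. Hlf, the remaining PAR factor, was at 38.4 ± 7.11 CPM in wild type and 26.1 ± 5.998 CPM in the knockout (mean ± SD, n = 3) and did not pass (-0.56 ± 0.19, adjusted p = 0.106), nor did the opposing repressor Nfil3 (0.36 ± 0.18, adjusted p = 0.302). Among 12 kinases and ubiquitin ligases that act on clock proteins 1 fell and 0 rose (8.33%, where 5.31% of all tested genes were called). This was Usp2, a deubiquitinase under direct clock control, at 55.2, 66.9 and 54.2 CPM in wild type and 6.13, 7.20 and 4.52 CPM in the knockout (-3.30 ± 0.36, adjusted p = 8.43e-06). The plot of core clock genes by library shows that the low levels of Ciart, Nr1d1, Nr1d2, Dbp and Per3 were shared by the 3 knockout libraries.

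**Figure D1:**
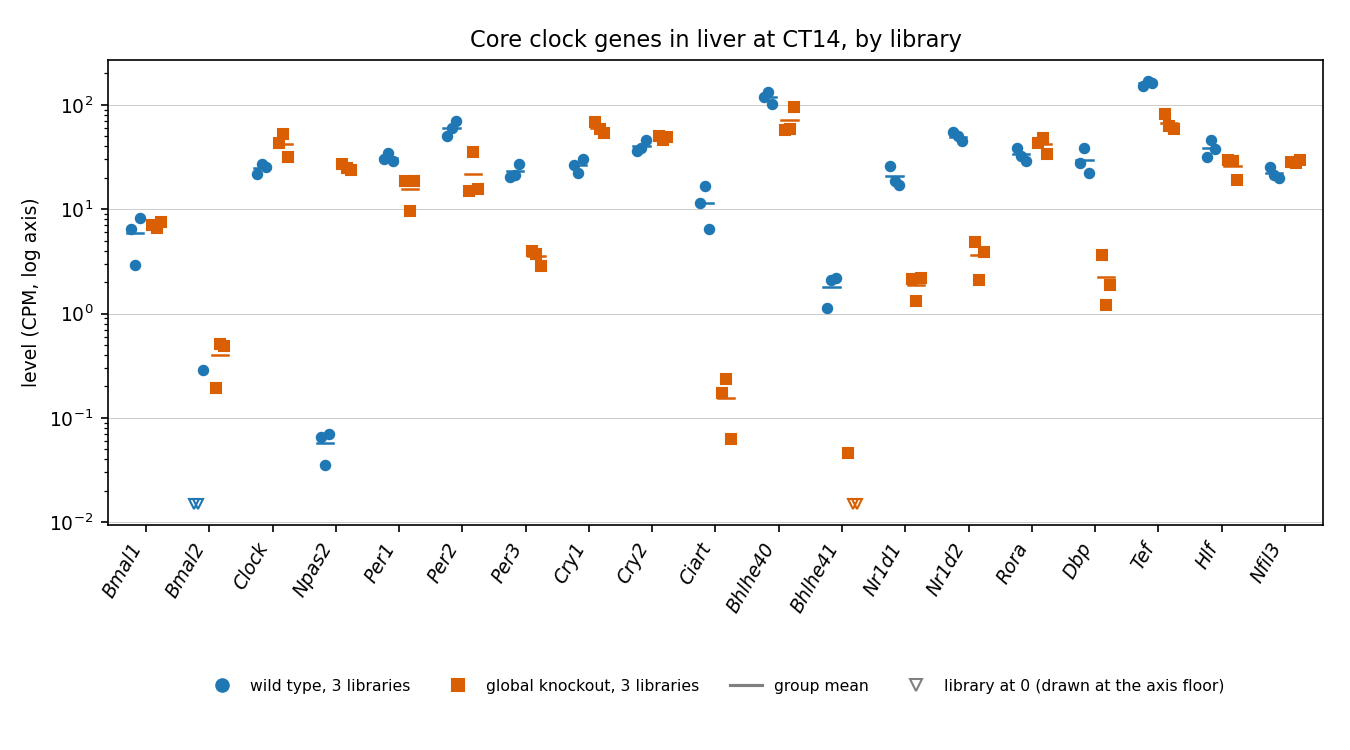
Level of 19 core clock genes (CPM, log axis) in the 3 wild-type (circles) and 3 global knockout (squares) libraries at CT14; horizontal bars are group means and open triangles mark libraries at 0. Npas2 lies at 0.0357 to 0.0700 CPM in wild type and at 23.6 to 27.3 CPM in the knockout, while the Bmal1 groups overlap.

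Promoter sequences were read for the 8 called clock genes with the smallest p, in RefSeq promoter windows on build GRCm38.p6 that run from 250 bases before to 50 bases after the start. Each was searched on both strands for the E-box CACGTG, the RORE core TAGGTCA and the D-box TTATGNAA. Among 32851 promoters of this length, 7.15% held the E-box, 2.61% the RORE core and 3.38% the D-box. The motifs do not overlap one another in the 4 windows shown. Ciart held 3 E-boxes, at 116, 58 and 44 bases before the start, Cry1 held 1 at 60 bases and Tef 1 at 127 bases (and 1 at 138 bases before a second annotated start). Per3 held D-boxes at 205 and 158 bases before the start and no E-box. Npas2, Nr1d2, Dbp and Nr1d1 held none of these letters in this window. The 4 windows with a motif are printed because they set a riser, Cry1, beside 3 genes that fell. Motifs are in capitals, and each sequence runs 5′ to 3′ on the strand of its gene.
Ciart, chr3:95882179-95882478, minus strand: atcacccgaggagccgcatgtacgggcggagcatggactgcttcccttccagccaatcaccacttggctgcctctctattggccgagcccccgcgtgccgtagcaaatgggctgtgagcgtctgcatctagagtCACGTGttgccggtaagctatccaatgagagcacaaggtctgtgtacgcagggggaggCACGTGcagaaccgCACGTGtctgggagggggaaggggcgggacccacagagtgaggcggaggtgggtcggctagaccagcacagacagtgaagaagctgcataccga
Cry1, chr10:85185005-85185304, minus strand: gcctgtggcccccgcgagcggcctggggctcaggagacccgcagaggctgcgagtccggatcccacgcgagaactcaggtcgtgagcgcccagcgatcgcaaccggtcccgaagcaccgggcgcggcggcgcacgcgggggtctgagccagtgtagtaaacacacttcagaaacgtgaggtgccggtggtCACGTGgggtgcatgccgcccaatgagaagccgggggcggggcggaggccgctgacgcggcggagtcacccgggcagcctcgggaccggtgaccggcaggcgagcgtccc
Tef, chr15:81802423-81802722, plus strand: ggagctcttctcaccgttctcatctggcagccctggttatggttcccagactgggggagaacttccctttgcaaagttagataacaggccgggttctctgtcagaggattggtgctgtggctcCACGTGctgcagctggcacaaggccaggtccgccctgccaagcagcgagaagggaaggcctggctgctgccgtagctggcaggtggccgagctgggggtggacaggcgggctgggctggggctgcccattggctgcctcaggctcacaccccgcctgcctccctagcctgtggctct
Per3, chr4:151044616-151044915, minus strand: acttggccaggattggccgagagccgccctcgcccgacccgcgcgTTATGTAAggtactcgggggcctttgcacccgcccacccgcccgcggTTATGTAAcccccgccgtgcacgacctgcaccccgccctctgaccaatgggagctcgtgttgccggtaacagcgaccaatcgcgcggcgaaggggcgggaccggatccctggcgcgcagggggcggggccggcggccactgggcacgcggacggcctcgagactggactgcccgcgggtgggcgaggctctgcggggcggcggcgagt
The E-box was thus present both in Ciart, which fell 72.6-fold, and in Cry1, which rose 2.29-fold. A match is a description of letters, and binding was not measured.

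Across all tested genes, 1089 changed in the knockout, 647 higher and 442 lower. Of these, 723 differed at least 2-fold (435 higher, 288 lower) and 310 at least 4-fold (193 higher, 117 lower). The median log2 fold change over all tested genes was 0.0056. The 3 knockout and 3 wild-type libraries did not overlap for 25.9% of tested genes and for 1069 of the 1089 called. The same threshold is passed by 1860 genes in the authors' deposited table (968 higher, 892 lower). Of these 928 are shared with the 1089, each in the same direction. Some of the 1089, such as Gm11454 and Gm19522, have no value in the authors' table and could not be shared. DESeq2 run on the tested genes kept 1086 of the 1089.

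The largest rises led from near-silent to clearly detected transcripts. Cdx4, a caudal-type homeobox transcription factor, had 0 counts in all wild-type libraries and 0 ± 0 CPM in wild type and 2.61 ± 1.11 CPM in the knockout (mean ± SD, n = 3), at least 101-fold higher against a floor of 3 counts per library (adjusted p = 5.39e-05). Such bounds take each estimated count as 1 read and may be too high if 1 read gave several counts. Loxl4, a lysyl oxidase that cross-links collagen, was at 0.739, 0.517 and 0.63 CPM in wild type and 60.2, 86.7 and 86.0 CPM in the knockout (6.94 ± 0.72, adjusted p = 8.97e-06). Tmc5, a transmembrane channel-like protein, was at 0.041, 0 and 0.105 CPM in wild type and 7.61, 12.1 and 17.1 CPM in the knockout (7.94 ± 1.26, adjusted p = 0.000747). In the second line, Tmc5 was at 12.8 ± 4.003 CPM in the floxed control and 1.80 ± 0.734 CPM in the liver knockout, so that the floxed control with intact Bmal1 held it at a level within the range of the global knockout. Dhrs9, a retinol dehydrogenase, rose as well (0.0493, 0.0713 and 0 CPM in wild type and 8.06, 9.04 and 0.466 CPM in the knockout; 7.15 ± 1.31 (adjusted p = 0.00235)), although its lowest knockout library was far below the highest. The noncoding or predicted genes Gm11454 (8.55 ± 0.61), Gm48581 (6.93 ± 1.33) and Gm30146 (0 counts in wild type, at least 45.6-fold higher) completed the stable rises. Gm29685 and AC139233.1 had 0 counts in wild type and were at least 43.6-fold and 38.9-fold higher, but the first call was lost without WT replicate 1, 2 or 3 or KO replicate 3 (adjusted p = 0.0857 to 0.128) and the second without WT replicate 1, 2 or 3 or KO replicate 1 or 3 (adjusted p = 0.0562 to 0.103). The histone gene Hist1h2al was at 0.0246, 0.0357 and 0.0787 CPM in wild type and 61.3, 57.0 and 22.9 CPM in the knockout, a call lost without WT replicate 1, 2 or 3 (adjusted p = 0.0811 to 0.106), and its reads may be shared with near-identical histone copies. Sult1e1, the estrogen sulfotransferase, was at 0.213, 0.205 and 0 CPM in wild type and 53.4, 4.84 and 7.26 CPM in the knockout, and its call (7.28 ± 1.91, adjusted p = 0.0312) was lost without WT replicate 1, 2 or 3 or KO replicate 1 (adjusted p = 0.107 to 0.124).

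The largest falls included 3 members of the Nat8 N-acetyltransferase family, described below, and the cytochrome gene Cyp2a4. Mme, the membrane peptidase neprilysin, was at 36.8, 41.4 and 27.4 CPM in wild type and 0.649, 0.551 and 1.41 CPM in the knockout (-5.34 ± 0.66, adjusted p = 4.64e-05). Aqp4, a water channel, was at 3.93, 2.59 and 1.42 CPM in wild type and 0, 0.083 and 0 CPM in the knockout (-6.44 ± 1.04, adjusted p = 0.000561). No overlap between the groups was a condition for naming the genes of largest change. Kcnk10, a potassium channel, was low in all libraries at 0.197, 0.517 and 2.46 CPM in wild type and 0, 0.0302 and 0 CPM in the knockout (-6.47 ± 1.43, adjusted p = 0.00817). Gm19522 (-5.99 ± 0.54) and Gm12265 (-5.02 ± 0.77) were predicted genes that fell. Fam107a fell from a variable wild-type level, 0.788, 4.56 and 4.801 CPM in wild type and 0, 0.106 and 0.0718 CPM in the knockout, and its call was lost without WT replicate 2 or 3 or KO replicate 1, 2 or 3 (adjusted p = 0.0671 to 0.0992).

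Cholesterol synthesis was the metabolic list with the largest share of risers. Of its 27 tested genes 13 rose and 0 fell (48.1%, where 5.31% of all tested genes were called), with a median log2 fold change of 0.93. Hmgcs1, which makes the HMG-CoA that enters the pathway, was at 154, 108 and 92.1 CPM in wild type and 617, 1083 and 904 CPM in the knockout (2.88 ± 0.43, adjusted p = 0.000289). Insig2, which holds the sterol sensor in the endoplasmic reticulum, was at 92.1, 88.4 and 118 CPM in wild type and 482, 427 and 557 CPM in the knockout (2.30 ± 0.35, adjusted p = 0.00033). Mevalonate kinase Mvk (1.501 ± 0.27) and lanosterol synthase Lss (1.58 ± 0.30) rose too. Leaving out single knockout libraries gave 10 to 14 risers, and leaving out WT replicate 2 gave 9.

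Of 29 bile acid genes 3 rose and 1 fell (13.8%, where 5.31% of all tested genes were called), with a median of -0.05. Abcb11, the canalicular bile salt export pump, was at 187, 166 and 206 CPM in wild type and 704, 629.8 and 401 CPM in the knockout (1.63 ± 0.20, adjusted p = 2.99e-05). Hsd3b7, an early enzyme of bile acid synthesis, was at 199, 177 and 220.1 CPM in wild type and 580.2, 465 and 539 CPM in the knockout (1.41 ± 0.19, adjusted p = 9.48e-05). Abcc4, a basolateral export pump, fell (11.3, 6.24 and 6.32 CPM against 2.78, 2.41 and 2.47 CPM; -1.64 ± 0.35 (adjusted p = 0.00606)). Fgfr4, the hepatocyte receptor for FGF15, was higher by 0.65 ± 0.18, a call lost without WT replicate 1 or 2 or KO replicate 1, 2 or 3 (adjusted p = 0.0529 to 0.188).

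Genes of lipogenesis and lipid droplets mostly lay lower. Of the 27 tested members 7 fell and 2 rose (33.3%, where 5.31% of all tested genes were called), with a median of -0.78. Thrsp (Spot 14), a lipogenic nuclear protein, was at 2179, 2119.5 and 1733 CPM in wild type and 98.4, 210.0 and 86.4 CPM in the knockout (-3.93 ± 0.45, adjusted p = 2e-05). Lpin1, a phosphatidate phosphatase, was at 459, 595 and 175 CPM in wild type and 37.0, 40.04 and 50.8 CPM in the knockout (-3.27 ± 0.47, adjusted p = 0.000198). Cidec, a lipid droplet protein, was low throughout (2.26 ± 0.393 CPM in wild type and 0.634 ± 0.137 CPM in the knockout) and its fall of -1.83 ± 0.42 was lost without KO replicate 3 (adjusted p = 0.0663). The desaturase Fads2 (-0.96 ± 0.24) lost its call without WT replicate 1 or 3 or KO replicate 1 or 2 (adjusted p = 0.0533 to 0.084). Plin2, which coats lipid droplets, rose instead, at 156, 176 and 205 CPM in wild type and 327, 339 and 343 CPM in the knockout (0.91 ± 0.18, adjusted p = 0.00382). The elongase Elovl5 was higher by 0.94 ± 0.26, a call lost without any 1 of the 6 libraries (adjusted p = 0.055 to 0.171). The count of falls was 3 without WT replicate 1, 4 without KO replicate 1 and 3 without KO replicate 3.

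Of 34 genes of fatty acid oxidation and ketogenesis 6 fell and 1 rose, with a median of -0.42. These calls were 20.6% of the list, where 5.31% of all tested genes were called. Fabp1, the fatty acid binding protein of liver, was at 2984, 3331 and 3774 CPM in wild type and 1227, 997 and 690.5 CPM in the knockout (-1.79 ± 0.36, adjusted p = 0.00393). The peroxisomal thiolase Acaa1b (-1.83 ± 0.41) and the carnitine carrier Slc25a20 (-0.88 ± 0.17) also fell. Decr1, a mitochondrial reductase for unsaturated fatty acids, fell by -0.79 ± 0.18 on the log2 scale, a call lost without WT replicate 2 or KO replicate 3 (adjusted p = 0.051 to 0.0515). The riser was Pdk4, the kinase that shuts pyruvate dehydrogenase, at 3.23, 2.48 and 2.87 CPM in wild type and 28.0, 30.8 and 27.2 CPM in the knockout (3.32 ± 0.51, adjusted p = 0.000436). The count of falls was 4 without WT replicate 2, without WT replicate 3, without KO replicate 2 or without KO replicate 3.

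In glucose and glycogen metabolism 6 of 22 genes fell and 2 rose, with a median of -0.43. These calls were 36.4% of the list, where 5.31% of all tested genes were called. Gys2, liver glycogen synthase, was at 259, 331 and 291 CPM in wild type and 61.4, 55.0 and 41.0 CPM in the knockout and had one of the smallest p-values of all tested genes (-2.49 ± 0.18, adjusted p = 3.7e-08). Pklr, liver pyruvate kinase, was at 585, 338 and 333 CPM in wild type and 93.1, 121 and 89.4 CPM in the knockout (-2.05 ± 0.22, adjusted p = 6.14e-06). The glucose transporter Slc2a2 (-1.33 ± 0.19) and the glucose 6-phosphate transporter Slc37a4 (-1.25 ± 0.19) fell in all knockout libraries below all wild-type libraries. Ppp1r3c, a subunit that targets phosphatase to glycogen, rose at 20.3, 39.5 and 45.9 CPM in wild type and 55.9, 127 and 162 CPM in the knockout (1.71 ± 0.35, adjusted p = 0.00508). Gckr, the glucokinase regulator, rose by 0.61 ± 0.13 (adjusted p = 0.00738).

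**Figure D2:**
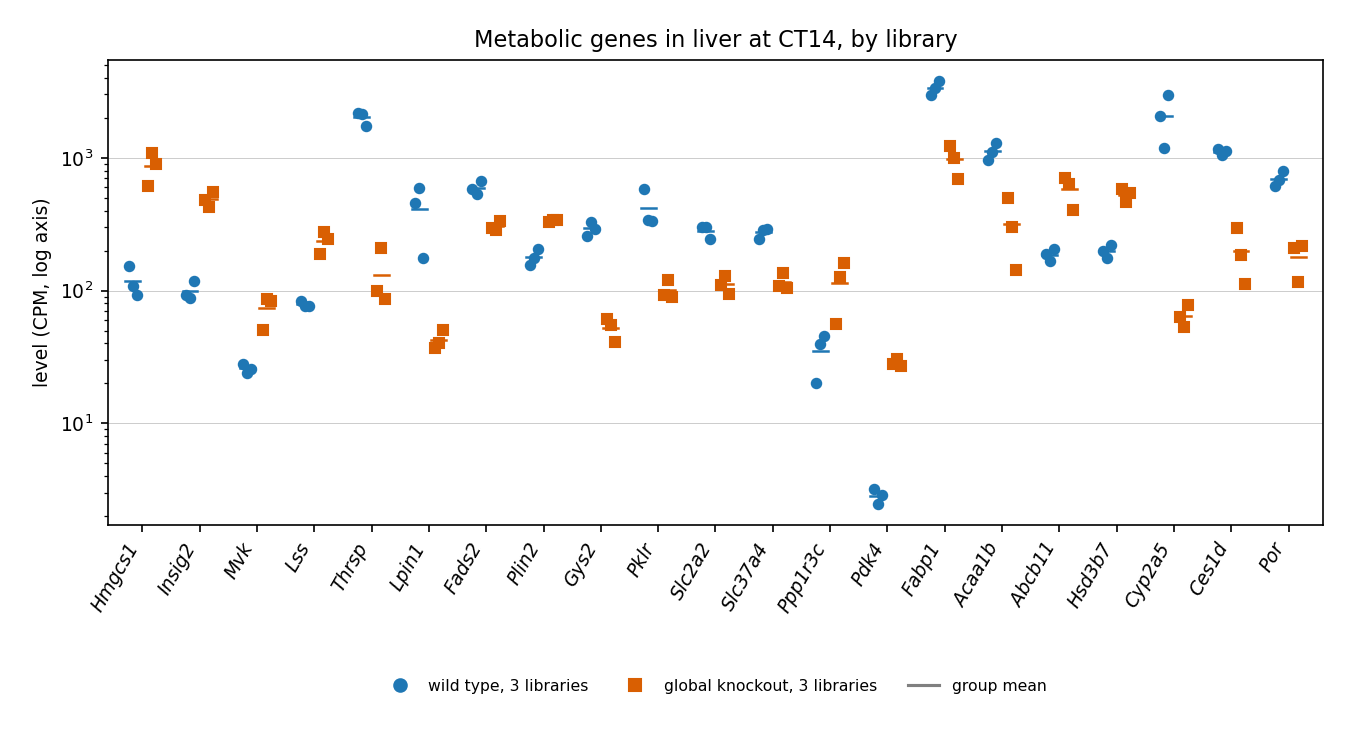
Levels of 21 metabolic genes (CPM, log axis) in the 3 wild-type (circles) and 3 global knockout (squares) libraries at CT14, with bars at the group means. Hmgcs1, Insig2, Abcb11 and Pdk4 lie higher in all 3 knockout libraries, and Thrsp, Lpin1, Gys2, Fabp1 and Cyp2a5 lie lower in all 3.

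Of 24 genes of amino acid catabolism and the urea cycle 3 fell and 1 rose, with a median of -0.09. These calls were 16.7% of the list, where 5.31% of all tested genes were called. The urea cycle lyase Asl was at 719.7, 788 and 869.9 CPM in wild type and 321, 329 and 267 CPM in the knockout (-1.37 ± 0.23, adjusted p = 0.000767). Tat, tyrosine aminotransferase, was at 1979.7, 2329 and 1519 CPM in wild type and 521, 608 and 832 CPM in the knockout (-1.57 ± 0.28, adjusted p = 0.00134). The serine dehydratase Sds (-1.11 ± 0.30) lost its call without WT replicate 1 or 2 or KO replicate 1 or 3 (adjusted p = 0.0594 to 0.149). The riser Oat, ornithine aminotransferase (0.99 ± 0.29), lost its call without any 1 of the 6 libraries (adjusted p = 0.0779 to 0.213).

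Xenobiotic metabolism moved in both directions. Of 56 genes 15 fell and 8 rose (41.1%, where 5.31% of all tested genes were called), with a median of -0.42. Cyp2a5, a coumarin hydroxylase, was at 2068, 1188 and 2976 CPM in wild type and 63.4, 53.3 and 77.5 CPM in the knockout (-5.00 ± 0.69, adjusted p = 0.000164). Cyp2a4, its near-identical neighbour, was at 51.6, 39.6 and 87.6 CPM in wild type and 0.247, 0.362 and 0.296 CPM in the knockout (-7.62 ± 1.51, adjusted p = 0.00501). Reads shared between Cyp2a4 and Cyp2a5 could not be traced, so that how the fall divides between them is uncertain. Por, which passes electrons to all microsomal cytochromes P450, was at 612, 676 and 799 CPM in wild type and 209, 117 and 216 CPM in the knockout (-1.95 ± 0.34, adjusted p = 0.00118). The carboxylesterases Ces1d (-2.50 ± 0.35, adjusted p = 0.000136) and Ces1e (-2.52 ± 0.36, adjusted p = 0.000195), which belong to a cluster of similar genes, fell. In the other direction Cyp2c55 was at 1.33, 0.669 and 0.945 CPM in wild type and 30.9, 63.0 and 26.0 CPM in the knockout (5.34 ± 0.83, adjusted p = 0.000638). The glutathione transferases Gstm2 (2.17 ± 0.29, adjusted p = 8.4e-05) and Gstm3 (1.99 ± 0.42, adjusted p = 0.00589) rose. Cyp2c29 was higher by 0.98 ± 0.21, a call lost without WT replicate 2 (adjusted p = 0.0554). Without WT replicate 2 the list held 4 risers and 11 falls, and without WT replicate 3 it held 5 risers and 12 falls, and without KO replicate 1 it held 5 risers and 13 falls.

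The Nat8 family, clustered acetyltransferases of similar sequence, fell in 5 of 8 tested members, with a median of -3.94, and 3 were not called. The calls were 62.5% of the list, where 5.31% of all tested genes were called. The summed level of the family changed little, at 1264, 1350 and 1304 CPM in wild type and 1162, 1271 and 1122 CPM in the knockout. The members named below held a small part of these sums. Nat8 was at 30.6, 42.5 and 19.5 CPM in wild type and 0.439, 1.09 and 0.825 CPM in the knockout (-5.29 ± 0.61, adjusted p = 2.2e-05). Nat8f5 was at 49.7, 44.0 and 29.1 CPM in wild type and 1.06, 6.68 and 1.37 CPM in the knockout (-3.75 ± 0.70, adjusted p = 0.00275) and Nat8f3 at 1.54, 1.12 and 0.927 CPM in wild type and 0.0731, 0.0226 and 0 CPM in the knockout (-5.20 ± 0.99, adjusted p = 0.00249). Nat8f7 had 656 counts in wild type and 1 in the knockout, a ratio of 665 with a counting interval of 119 to 2.63e+04 (95%, counting error only, adjusted p = 0.000255). The interval takes each estimated count as 1 read and may be too narrow, because low counts piled up at multiples of 4. Each of the members named here was lower in all knockout libraries, and reads shared among the copies could not be traced.

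Of 22 extracellular matrix genes 6 fell and 2 rose (36.4%, where 5.31% of all tested genes were called), with a median of -0.39. Col27a1, a fibrillar collagen, was at 32.2, 39.9 and 43.7 CPM in wild type and 1.42, 2.47 and 2.48 CPM in the knockout (-4.18 ± 0.35, adjusted p = 3.65e-07). Timp3, an inhibitor of matrix proteases, was at 38.6, 32.3 and 25.6 CPM in wild type and 9.81, 10.4 and 7.11 CPM in the knockout (-1.82 ± 0.25, adjusted p = 9.48e-05). The membrane protease Mmp15 (-1.43 ± 0.26) and the collagen Col14a1 (-0.87 ± 0.17) fell too. The basement membrane chains Col4a1 (0.84 ± 0.21) and Col4a2 (0.81 ± 0.20) were higher, calls lost without WT replicate 1, 2 or 3 or KO replicate 2 or 3 (adjusted p = 0.0521 to 0.0885) and without WT replicate 1 or 3 or KO replicate 3 (adjusted p = 0.0612 to 0.103). The list held 0 risers and 4 falls without WT replicate 1, 0 and 5 without WT replicate 3, and 1 and 4 without KO replicate 2.

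The glucocorticoid, heat shock and ATF4 lists held 3 to 4 calls each. Among 14 glucocorticoid-responsive genes 2 fell and 1 rose (21.4%, where 5.31% of all tested genes were called). The receptor co-chaperone Fkbp5 was at 144, 211 and 182 CPM in wild type and 30.2, 34.6 and 68.4 CPM in the knockout (-2.01 ± 0.28, adjusted p = 0.000104), and Tat fell as above. The cyclin-dependent kinase inhibitor Cdkn1a was at 3.96, 5.35 and 2.80 CPM in wild type and 30.5, 30.7 and 60.3 CPM in the knockout (3.33 ± 0.39, adjusted p = 2e-05). Of 15 heat shock and cold-inducible genes 3 fell and 1 rose (26.7%), with a median of -1.02. In 10 of the 15 every knockout library lay below every wild-type library, as in 2562 of all 20514 tested genes. The small heat shock protein Hspb1 (-2.93 ± 0.47, adjusted p = 0.000616) and the co-chaperone Dnajb1 (-1.48 ± 0.31, adjusted p = 0.00589) fell. Hsph1 (-1.42 ± 0.37) lost its call without WT replicate 2 or 3 or KO replicate 1 or 3 (adjusted p = 0.0906 to 0.141). The cold-inducible RNA-binding protein Cirbp rose (1.74 ± 0.37, adjusted p = 0.00606). Of 21 genes of the ATF4 response and endoplasmic reticulum stress 2 rose and 1 fell (14.3%). Atf5, a stress transcription factor, was at 108, 77.4 and 83.9 CPM in wild type and 348, 322 and 445 CPM in the knockout (2.05 ± 0.27, adjusted p = 6.77e-05). Asns, asparagine synthetase, another ATF4 target, was at 7.82, 6.31 and 3.18 CPM in wild type and 0.11, 0.0377 and 0.592 CPM in the knockout (-4.56 ± 0.77, adjusted p = 0.000969). Ddit4, an inhibitor of mTORC1, was higher by 0.86 ± 0.21, a call lost without WT replicate 1 or KO replicate 3 (adjusted p = 0.116 to 0.162).

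Among 27 cell cycle genes 3 fell and 1 rose (Cdkn1a), 14.8% of the list, where 5.31% of all tested genes were called. Wee1, the kinase that delays mitosis and a clock-controlled gene, was at 19.7, 19.3 and 17.1 CPM in wild type and 7.54, 9.02 and 5.36 CPM in the knockout (-1.36 ± 0.28, adjusted p = 0.00441). Rrm2, a ribonucleotide reductase subunit, was at 6.39, 5.75 and 2.41 CPM in wild type and 1.57, 1.01 and 1.25 CPM in the knockout (-1.93 ± 0.37, adjusted p = 0.0025). Ccne1, cyclin E1, was lower by -1.71 ± 0.48, a call lost without WT replicate 1 or 2 or KO replicate 1, 2 or 3 (adjusted p = 0.0686 to 0.163). The list held 4 risers without WT replicate 1. Of 22 immediate early genes 2 fell (9.09%), Jun (-1.17 ± 0.20, adjusted p = 0.00116) and Klf10 (-1.48 ± 0.31, adjusted p = 0.00575). Of 21 genes of NAD metabolism and sirtuins 2 fell and 1 rose (14.3%). The nicotinamide riboside kinase Nmrk1 fell (-1.59 ± 0.30, adjusted p = 0.00203) and the kynureninase gene Kynu rose (0.93 ± 0.19, adjusted p = 0.00532). Nampt, the rate-limiting enzyme of NAD salvage, was at 131, 148 and 91.0 CPM in wild type and 33.4, 35.6 and 69.0 CPM in the knockout, without overlap, and its fall (-1.42 ± 0.36, adjusted p = 0.0219) was lost without WT replicate 1 or 2 or KO replicate 1 or 2 (adjusted p = 0.0664 to 0.112). Of 19 NRF2 and antioxidant genes 1 rose and 1 fell (10.5%), Srxn1 (0.68 ± 0.19) and Sod2 (-0.46 ± 0.11), calls lost without any 1 of the 6 libraries (adjusted p = 0.06 to 0.142) and without WT replicate 3 or KO replicate 3 (adjusted p = 0.0628 to 0.0773).

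In the growth hormone axis 2 of 14 genes rose (14.3%, where 5.31% of all tested genes were called). They were Stat5b (0.83 ± 0.18), the signal transducer of the axis, and Prlr (1.04 ± 0.28), the prolactin receptor. These calls were lost without KO replicate 1 (adjusted p = 0.0526) and without WT replicate 1 or 2 or KO replicate 1 or 3 (adjusted p = 0.0641 to 0.168). Of 15 genes known as male-biased in liver 1 rose (6.67%), the elongase Elovl3, at 32.8, 24.4 and 17.03 CPM in wild type and 351, 663 and 208 CPM in the knockout (4.04 ± 0.74, adjusted p = 0.00229). Of 20 genes known as female-biased 3 rose and 2 fell, with a median of 1.37, which was 0.13 without KO replicate 3. The risers were Sult1e1 (above), Cyp2c40 (3.07 ± 0.85, lost without WT replicate 1, 2 or 3 or KO replicate 2 or 3 (adjusted p = 0.0754 to 0.162)) and Cyp2c69 (4.63 ± 1.31, lost without WT replicate 1, 2 or 3 or KO replicate 2 or 3 (adjusted p = 0.0734 to 0.194)), with 0 risers without any 1 of the 3 WT libraries. The falls were Cyp2a4 and the monooxygenase Fmo2 (-1.67 ± 0.40), the latter lost without WT replicate 2 or KO replicate 1 or 2 (adjusted p = 0.0662 to 0.0825).

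Acute phase proteins, which the liver secretes in inflammation, lay higher. Of 27 tested genes 7 rose and 0 fell (25.9%, where 5.31% of all tested genes were called), with a median of 1.11. The summed level was 21603 to 25512 CPM in wild type and 48533 to 57361 CPM in the knockout. Lbp, the lipopolysaccharide binding protein, was at 68.4, 55.2 and 61.3 CPM in wild type and 289, 288 and 441 CPM in the knockout (2.46 ± 0.36, adjusted p = 0.000192). The fibrinogen chain Fga was at 2193, 2129.8 and 2328 CPM in wild type and 6279.8, 6835 and 7008 CPM in the knockout (1.60 ± 0.28, adjusted p = 0.00135), and Fgb (1.55 ± 0.28, adjusted p = 0.00166) and Fgg (1.47 ± 0.30, adjusted p = 0.00491) rose with it. Without KO replicate 3 the list held 6 risers, 1 fall and a median of 0.79. Of 22 coagulation and complement genes 3 rose (13.6%, where 5.31% of all tested genes were called), plasminogen Plg (0.69 ± 0.14, adjusted p = 0.00455), the mannose-binding lectin Mbl1 (0.67 ± 0.13, adjusted p = 0.00355) and the complement component C3 (0.97 ± 0.28), the last lost without WT replicate 1, 2 or 3 or KO replicate 1 or 3 (adjusted p = 0.0785 to 0.226).

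The interferon-stimulated genes rested on 1 library. Of 32 tested genes 9 rose and 0 fell (28.1%, where 5.31% of all tested genes were called), with a median of 1.31. But without KO replicate 3 the list held 0 called genes and a median of -0.38. The antiviral gene Rsad2 was at 4.10, 1.65 and 3.55 CPM in wild type and 7.85, 12.4 and 333 CPM in the knockout (5.25 ± 1.09, adjusted p = 0.00714). Isg15, a ubiquitin-like modifier, was at 13.5, 5.62 and 10.9 CPM in wild type and 9.02, 15.1 and 425 CPM in the knockout (3.90 ± 0.98, adjusted p = 0.0249). In both, KO replicate 3 was far above the other 5 libraries. Among those 5 the groups overlapped for Isg15, and for Rsad2 both knockout libraries lay above the 3 wild-type libraries. Cmpk2 (3.84 ± 0.86) and the RNA sensor Rigi (1.67 ± 0.41) were called with them. Calls were lost for Rsad2 without WT replicate 2 or KO replicate 3 (adjusted p = 0.0532 to 0.0694), for Cmpk2 without WT replicate 2 or 3 or KO replicate 3 (adjusted p = 0.0503 to 0.169), for Rigi without WT replicate 2 or 3 or KO replicate 3 (adjusted p = 0.0585 to 0.269) and for Isg15 without WT replicate 1, 2 or 3 or KO replicate 3 (adjusted p = 0.0748 to 0.865). The summed level of the list was 4682 CPM in KO replicate 3 and 481 to 862 CPM in the other 5 libraries. The list also held 0 called genes without WT replicate 2 and 3 without WT replicate 1 or 3, but 15 risers without KO replicate 1 and 13 without KO replicate 2.

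**Figure D3:**
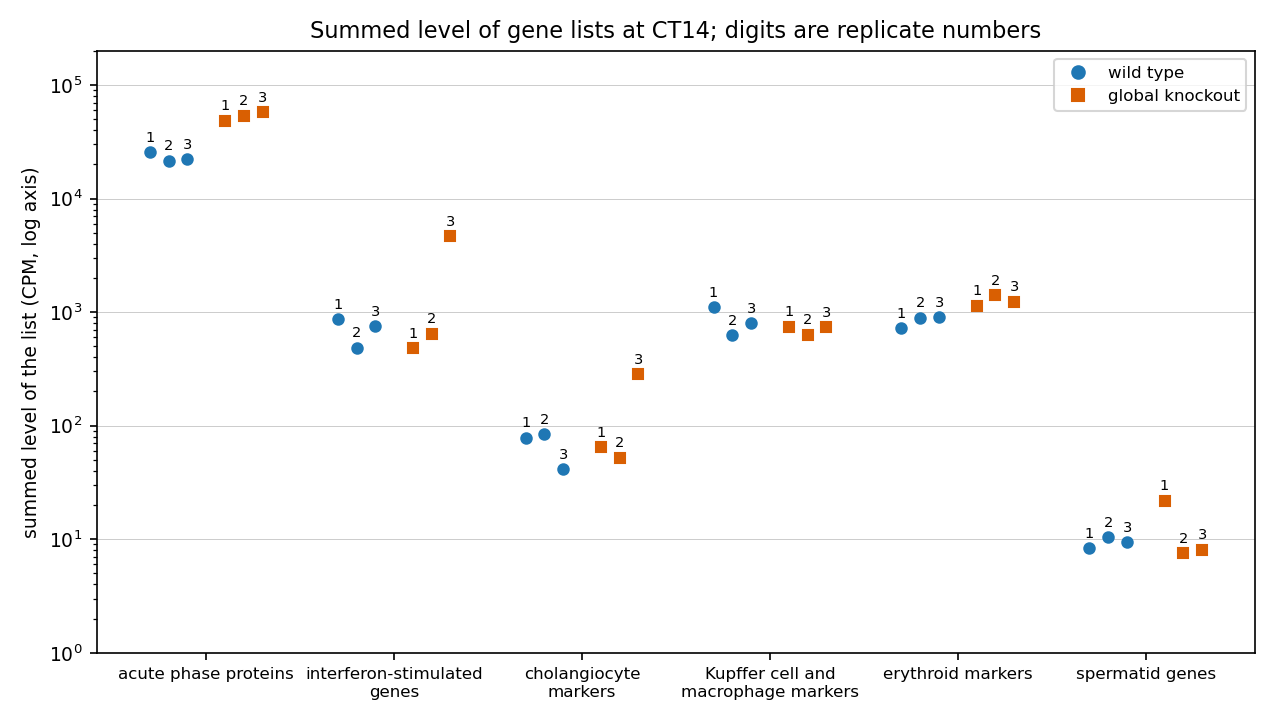
Summed level (CPM, log axis) of 6 gene lists in each wild-type (circles) and global knockout (squares) library at CT14; digits are replicate numbers. KO replicate 3 stands above the other libraries for interferon-stimulated genes (4682 CPM) and cholangiocyte markers (284 CPM), KO replicate 1 for spermatid genes (21.8 CPM), while acute phase sums are higher in all 3 knockout libraries.

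Markers of hepatocytes were abundant in every library, with sums of 104029 to 119637 CPM in wild type and 72537 to 93364 CPM in the knockout, and Alb was the most abundant of them. Of 12 hepatocyte markers 2 fell and 1 rose (Fgb). Alb, albumin, was at 76931 ± 7214 CPM in wild type and 43421 ± 7938 CPM in the knockout (mean ± SD, n = 3), with a change of -0.83 ± 0.24 lost without any 1 of the 6 libraries (adjusted p = 0.0601 to 0.177), and Tat fell as above. Pericentral hepatocyte genes held 2 risers and 2 falls of 12 (33.3%). Cyp1a2, a caffeine-oxidizing cytochrome, fell, at 1024, 769 and 854 CPM in wild type and 416, 360.1 and 277 CPM in the knockout (-1.33 ± 0.30, lost without KO replicate 3 (adjusted p = 0.0578)). The other fall was the glutamate transporter Slc1a2 (-0.93 ± 0.21, lost without WT replicate 1 or KO replicate 2 (adjusted p = 0.0602 to 0.0655)). The risers were Oat and the Wnt target Axin2 (0.999 ± 0.27, lost without WT replicate 1 or 2 or KO replicate 1, 2 or 3 (adjusted p = 0.0682 to 0.157)). Periportal genes held 1 riser and 2 falls of 12, with Pigr (0.66 ± 0.18, lost without WT replicate 1, 2 or 3 or KO replicate 1 or 3 (adjusted p = 0.0518 to 0.164)), Sds and Aldh1b1 (-1.38 ± 0.31, lost without KO replicate 2 (adjusted p = 0.0524)).

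Lists of markers of other cell types were short, with 2 to 19 tested members, and held 0 to 2 calls each. Where such a list held 1 or 2 calls, its share lay above the 5.31% called among all tested genes. In lists this short, 0 calls does not show a share below 5.31%, and a difference from that share was not tested. Of 14 Kupffer cell and macrophage markers 0 were called, of 12 stellate cell and fibroblast markers 0 and of 11 neutrophil markers 0, and at p under 0.05 without adjustment 3537 of all 20514 genes passed. The summed neutrophil level was 2.99 to 7.503 CPM in wild type and 8.80 to 14.9 CPM in the knockout, which did not overlap. DESeq2 called 1 neutrophil marker higher and 0 of the other 2 lists. The closest genes of the 3 lists were Adgre1 (-0.71 ± 0.42, adjusted p = 0.425), Ngfr (0.77 ± 0.32, adjusted p = 0.2) and Cxcr2 (2.13 ± 0.72, adjusted p = 0.0981). Of 14 endothelial markers the sinusoidal receptor Lyve1 alone fell (-2.12 ± 0.48, lost without WT replicate 1 or KO replicate 2 or 3 (adjusted p = 0.0531 to 0.0602)), and of 15 lymphocyte markers Nkg7 (-1.79 ± 0.47, lost without WT replicate 1 or KO replicate 1 or 3 (adjusted p = 0.0842 to 0.173)). Of 8 erythroid markers Alas2 fell (-1.16 ± 0.30, lost without WT replicate 2 or 3 or KO replicate 1 or 3 (adjusted p = 0.073 to 0.133)), although the summed erythroid level was 722 to 903 CPM in wild type and 1136 to 1416 CPM in the knockout. Of 10 cholangiocyte markers 2 rose, Sox9 among them (1.99, 2.98 and 1.46 CPM in wild type and 7.09, 7.33 and 6.85 CPM in the knockout; 1.72 ± 0.37 (adjusted p = 0.00634)). Their summed level was 284 CPM in KO replicate 3 and 41.2 to 83.6 CPM in the other libraries. Without KO replicate 3 the list held 1 riser, Sox9 (adjusted p = 0.0177), and its median went from 0.57 to 0.25. Of 19 spermatid genes 0 were called, with a summed level of 21.8 CPM in KO replicate 1 and 7.501 to 10.4 CPM elsewhere. Their median log2 fold change was 5.65, and without KO replicate 1 it was 0.00 with 0 risers and 1 fall. DESeq2 called 8 of them higher and 1 lower. Of 11 pancreatic acinar markers and 2 adipocyte markers 0 were called, although the acinar sum was 29.2 to 41.6 CPM in wild type and 51.9 to 76.3 CPM in the knockout. The part of other cells in the liver's changes was not tested.

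The 3 general lists held 0 calls, in a comparison where 1089 genes passed; DESeq2 called 1 mitochondrially encoded gene lower and 0 of the other lists. Of 13 mitochondrially encoded genes 0 were called, with a median of -0.51 and sums of 33916 to 44058 CPM in wild type and 21354 to 29166 CPM in the knockout, which did not overlap. The closest was ND3, a subunit of complex I (-1.15 ± 0.38, adjusted p = 0.0927). Of 26 nuclear-encoded respiratory chain genes 0 were called, with a median of -0.25 and Ndufb8 closest (-0.55 ± 0.18, adjusted p = 0.0935). Of 30 cytosolic ribosomal protein genes 0 were called, with a median of 0.13 and Rpl3 closest (0.40 ± 0.24, adjusted p = 0.427). In iron handling 2 of 16 genes rose (12.5%), Hfe (0.56 ± 0.15, lost without WT replicate 1 or 2 or KO replicate 3 (adjusted p = 0.114 to 0.181)) and Hjv (0.66 ± 0.17, lost without WT replicate 1 or 2 or KO replicate 1 or 3 (adjusted p = 0.0877 to 0.148)). Of 19 apolipoprotein and lipoprotein genes 1 rose (5.26%, near the 5.31% called among all tested genes), the HDL receptor Scarb1 (0.65 ± 0.18, lost without any 1 of the 6 libraries (adjusted p = 0.0565 to 0.185)).

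**Figure D4:**
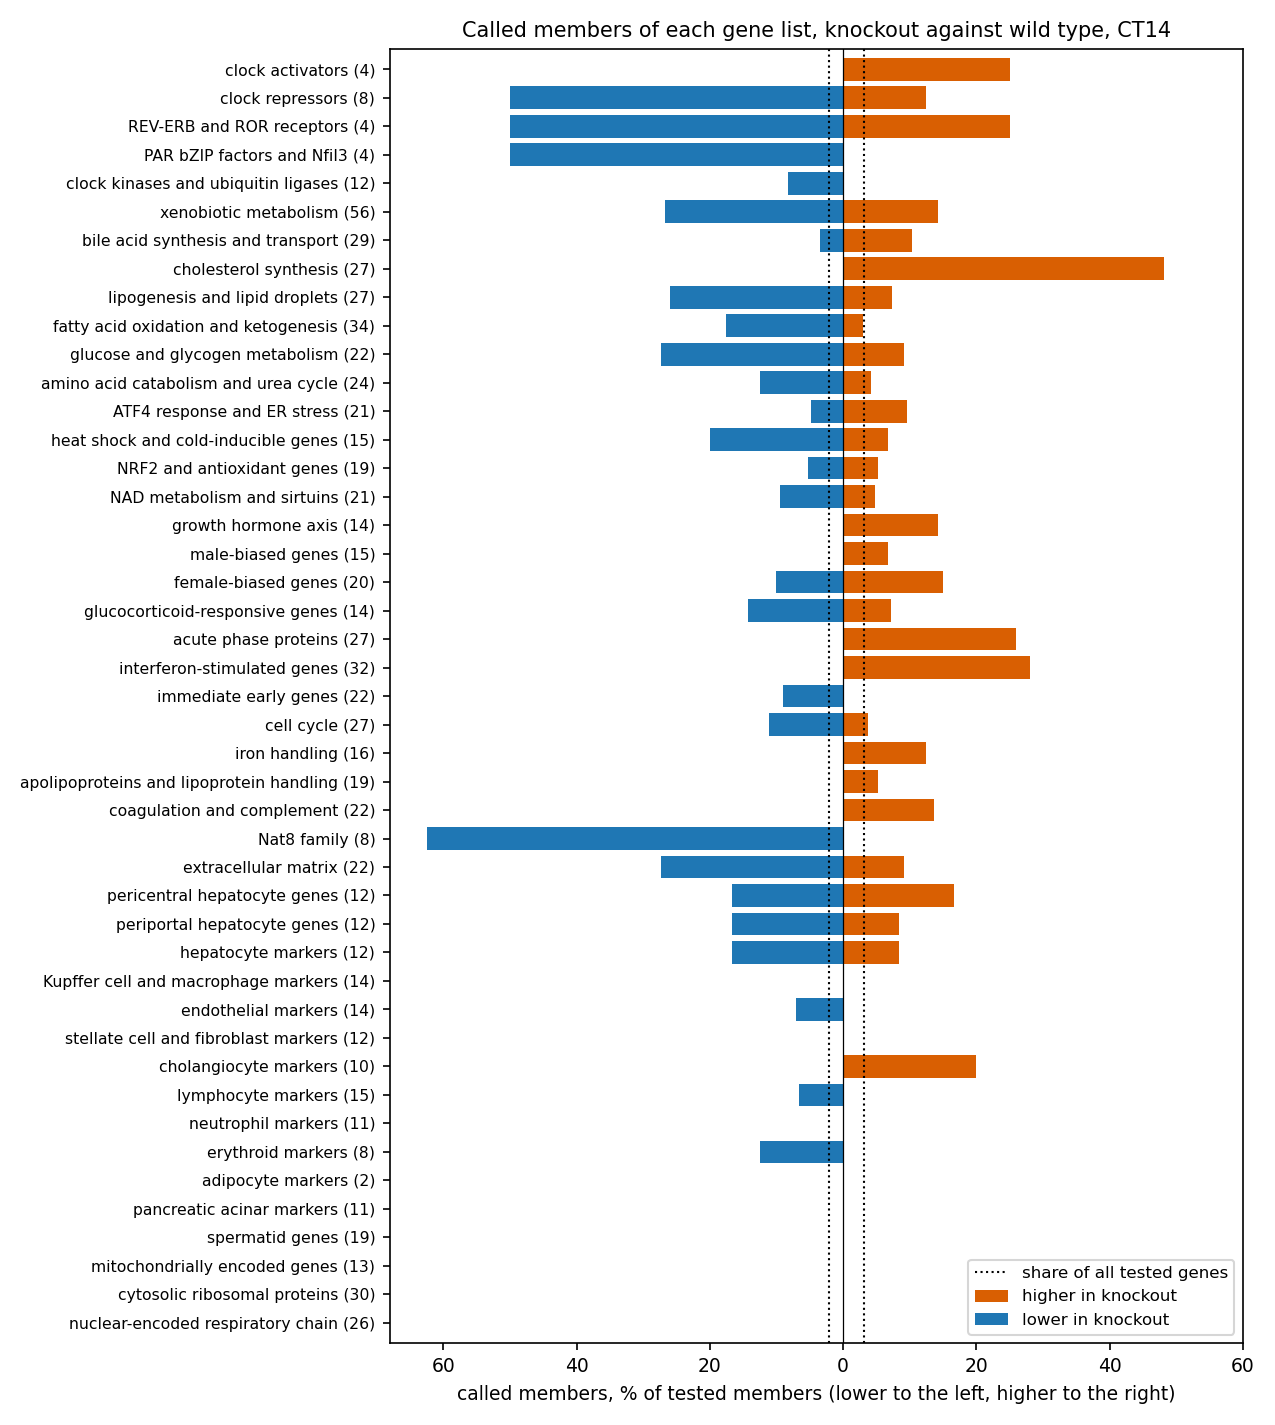
Share of tested members called lower (to the left) and higher (to the right) in the global knockout at CT14 for 45 gene lists, with the number tested in brackets; dotted lines mark the share over all tested genes, 2.15% lower and 3.15% higher. Cholesterol synthesis has risers on 1 side only, the Nat8 family and PAR bZIP factors have falls only, and the interferon bar rests on KO replicate 3.

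The knockout effect at CT14 was then set against that at CT2. At CT2 106 genes were called. Of these, 75 were called at CT14 in the same direction, 70.8% of the CT2 calls and 6.89% of the CT14 calls, and 6 in the opposite direction. The 6 were Per2, Per3, Dbp, Tef, Usp2 and Wee1, and all 6 fell at CT14 and rose at CT2. Dbp, for example, was at 0.506 ± 0.296 CPM in wild type and 2.70 ± 1.10 CPM in the knockout at CT2, a change of 2.41 ± 0.54 (adjusted p = 0.0473), and Tef at 21.8 ± 2.19 CPM in wild type and 79.0 ± 5.33 CPM in the knockout (1.86 ± 0.18, adjusted p = 1.51e-05). In both, the wild-type level was high at CT14 and low at CT2, and the knockout levels at the 2 times lay closer together. Per2 changed by 2.55 ± 0.36 (adjusted p = 0.000796) at CT2, Per3 by 1.94 ± 0.33 (adjusted p = 0.00576), Usp2 by 2.21 ± 0.35 (adjusted p = 0.00331) and Wee1 by 1.49 ± 0.28 (adjusted p = 0.014).

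Tested as a difference between times, 164 genes passed (0.799% of those tested). The log2 fold change was higher at CT14 than at CT2 for 103 and lower for 61. At CT14 itself 153 of the 164 were called. The clock genes among the 164, with the CT14 effect minus the CT2 effect, were Npas2 (7.44 ± 0.48, adjusted p = 1.58e-08), Per2 (-4.01 ± 0.49, adjusted p = 0.000168), Per3 (-4.65 ± 0.47, adjusted p = 1.53e-05), Ciart (-8.61 ± 1.55, adjusted p = 0.00724), Dbp (-6.12 ± 0.77, adjusted p = 0.00024), Tef (-3.11 ± 0.25, adjusted p = 6.63e-07), Nr1d2 (-1.95 ± 0.43, adjusted p = 0.0311), Cry2 (-1.02 ± 0.22, adjusted p = 0.0289) and Bmal1 (2.39 ± 0.50, adjusted p = 0.0215). Cry2 did not pass at CT14 and rose at CT2 (1.3004 ± 0.16, adjusted p = 0.000229). Cry1 rose at both times, and its difference of -0.05 ± 0.26 (adjusted p = 1) did not pass. Nr1d1 fell at both (-2.78 ± 0.55 (adjusted p = 0.022) at CT2), with a difference of -0.66 ± 0.73 (adjusted p = 0.924). Outside the clock, genes among those with the smallest p were Asap2, a regulator of small GTPases, 3930402G23Rik, Eps8l2, an actin regulator, and Hcn3, a cation channel. Asap2 was at 3.36, 3.98 and 4.78 CPM in wild type and 30.7, 22.3 and 27.5 CPM in the knockout at CT14 (2.73 ± 0.23, adjusted p = 4.6e-07), and its difference was 2.85 ± 0.32 (adjusted p = 6.35e-05). Of the 35 named genes with a called difference between times, 26 kept the call when each of the 12 WT and KO libraries of both times was left out in turn. Of the clock genes, Bmal1 lost it without WT replicate 2 of either time or any KO CT2 library (adjusted p up to 0.0600), Cry2 without 8 of the 12 libraries (up to 0.0894) and Nr1d2 without 10 (up to 0.0866; all but WT CT14 replicate 3 and KO CT14 replicate 1). For Cry2 the 8 were KO CT14 replicates 1 to 3, WT CT14 replicates 2 and 3, WT CT2 replicate 1 and KO CT2 replicates 2 and 3.

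Metabolic genes also differed between times. Thrsp was at 80.9 ± 35.1 CPM in wild type and 188 ± 92.7 CPM in the knockout at CT2 (1.22 ± 0.41, adjusted p = 0.308), a difference of -5.15 ± 0.61 (adjusted p = 0.000141). Gys2 was at 77.9 ± 5.58 CPM in wild type and 56.0 ± 5.05 CPM in the knockout at CT2 (-0.48 ± 0.17, adjusted p = 0.365), a difference of -2.01 ± 0.24 (adjusted p = 0.000145). For Thrsp and Gys2 wild-type levels were far higher at CT14 than at CT2, and knockout levels lay far below the wild-type CT14 level at both times. At CT14 the knockout was at 132 ± 68.2 CPM for Thrsp and 52.4 ± 10.4 CPM for Gys2. For Thrsp these means lay above the wild-type mean of CT2 at both times, and for Gys2 below it. Insig2 was at 453 ± 134 CPM in wild type and 362 ± 26.8 CPM in the knockout at CT2 (-0.33 ± 0.33, adjusted p = 0.95), a difference of 2.62 ± 0.48 (adjusted p = 0.00724). Of the metabolic lists, such a difference passed for 4 of 22 glucose and glycogen genes, 3 of 27 lipogenesis genes and 2 of 27 cholesterol synthesis genes. It passed for 2 of 29 bile acid genes and 2 of 56 xenobiotic genes, where 0.799% of all tested genes passed.

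**Figure D5:**
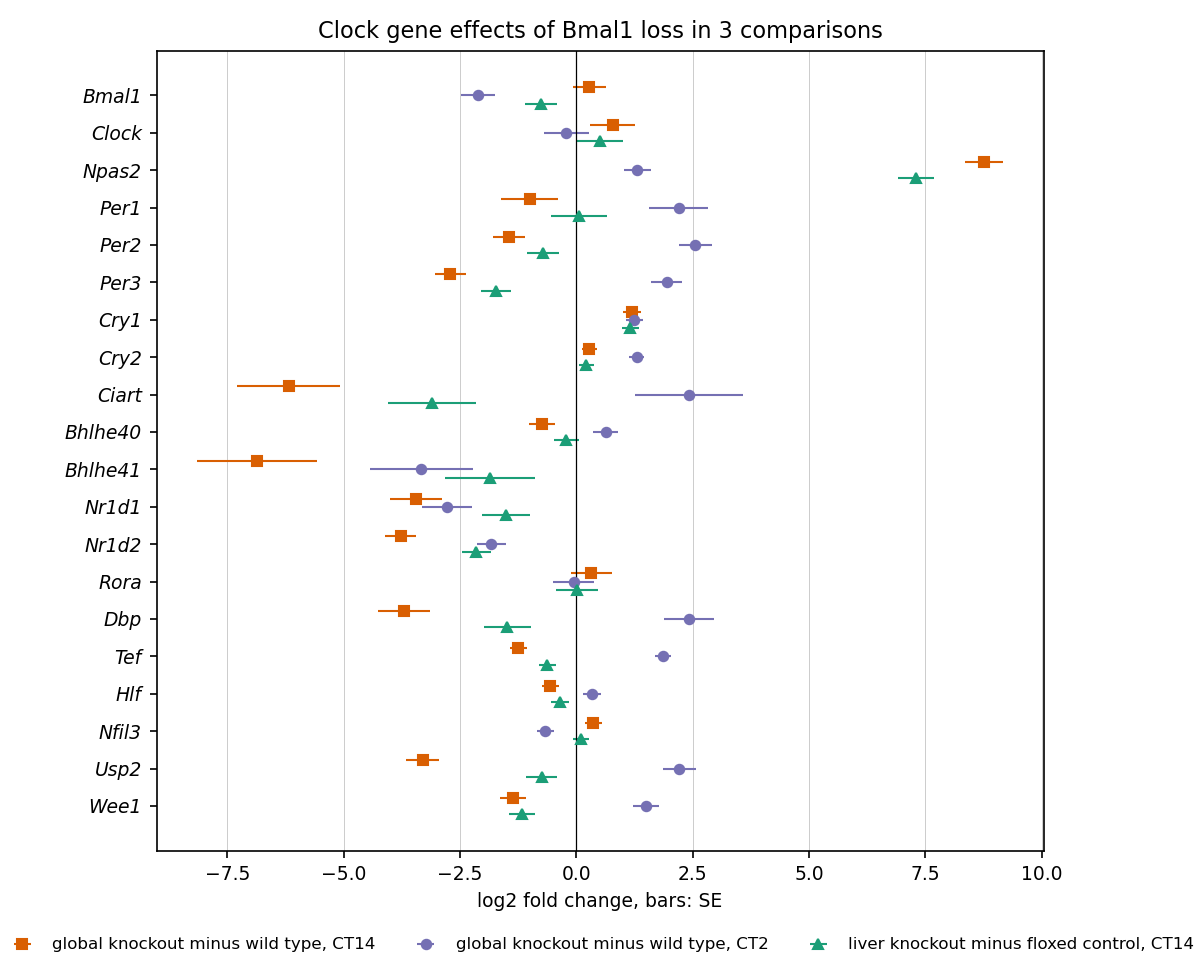
Log2 fold change with SE bars of 20 clock genes for global knockout minus wild type at CT14 (squares), the same at CT2 (circles) and liver knockout minus floxed control at CT14 (triangles). Per2, Per3, Dbp, Tef, Usp2 and Wee1 lie below 0 at CT14 and above 0 at CT2, and Npas2 lies above 0 in all 3.

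The effect of global loss was last compared with that of loss in hepatocytes at the same time, where the controls come from another line of mice. Liver knockout minus floxed control called 354 genes at CT14 (1.73% of those tested). Of these, 233 were called in the global knockout in the same direction (137 higher, 96 lower) and 0 in the opposite direction, 65.8% of the liver knockout calls and 21.4% of the global knockout calls. Npas2 changed by 7.30 ± 0.38 (adjusted p = 3.42e-10) in the liver knockout, Cry1 by 1.16 ± 0.19 (adjusted p = 0.00105), Nr1d2 by -2.15 ± 0.31 (adjusted p = 0.000424) and Per3 by -1.74 ± 0.32 (adjusted p = 0.00456). Dbp (-1.48 ± 0.51, adjusted p = 0.192), Nr1d1 (-1.52 ± 0.52, adjusted p = 0.197) and Ciart (-3.11 ± 0.94, adjusted p = 0.122) did not pass there, and their differences between the 2 knockouts, -2.22 ± 0.71 (adjusted p = 0.335), -1.93 ± 0.73 (adjusted p = 0.443) and -3.07 ± 1.29 (adjusted p = 0.526), did not pass either. Gys2 (-1.53 ± 0.17, adjusted p = 3.24e-05) and Thrsp (-2.76 ± 0.43, adjusted p = 0.00103) fell in the liver knockout as well.

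The difference between the effects passed for 15 genes (0.0731% of those tested). The log2 fold change was higher in the global than in the liver knockout for 12 and lower for 3 (0.0146%). At CT14 itself 11 of the 15 were called in the global knockout. Usp2 was the clock-linked gene among them, at 31.0 ± 12.7 CPM in the floxed control and 18.5 ± 4.04 CPM in the liver knockout in that line, a difference of -2.56 ± 0.48 (adjusted p = 0.0469). Lbp rose in the global knockout and was at 122 ± 57.5 CPM in the floxed control and 100.3 ± 7.23 CPM in the liver knockout, a difference of 2.75 ± 0.49 (adjusted p = 0.0345). Timp3 was at 33.7 ± 8.46 CPM in the floxed control and 37.2 ± 5.50 CPM in the liver knockout, a difference of -1.96 ± 0.34 (adjusted p = 0.0315). Ltbp4, a matrix protein that binds latent TGF-beta, fell in the global knockout (68.8, 54.3 and 44.2 CPM in wild type and 17.5, 18.7 and 20.7 CPM in the knockout), with a difference of -2.09 ± 0.36 (adjusted p = 0.0298). Tmc5 had a difference of 10.77 ± 1.57 (adjusted p = 0.0217), with the levels in the second line given above and a liver knockout effect of -2.82 ± 0.94 (adjusted p = 0.179). The acyltransferase Acnat2 was at 87.6 ± 55.6 CPM in the floxed control and 44.2 ± 14.7 CPM in the liver knockout, a difference of 3.87 ± 0.65 (adjusted p = 0.0298). Mboat1, also an acyltransferase, was near the detection limit in wild type, at 0.0657, 0.0357 and 0.0350 CPM (16 counts in total). It was at 0.713, 1.61 and 1.49 CPM in the global knockout. In the second line it was at 0.328 ± 0.0515 CPM in the floxed control and 0.596 ± 0.212 CPM in the liver knockout (0.86 ± 0.45, adjusted p = 0.537), a difference of 3.91 ± 0.67 (adjusted p = 0.0298). The amino acid transporter subunit Slc3a1 was at 113 ± 28.9 CPM in the floxed control and 50.7 ± 9.53 CPM in the liver knockout (-1.16 ± 0.31, adjusted p = 0.0568), a difference of 2.59 ± 0.43 (adjusted p = 0.0298).

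For Tff3 and Cyp3a13 it was the liver knockout effect that passed. Tff3, a trefoil peptide, was at 12.8 ± 4.90 CPM in the floxed control and 0.661 ± 0.447 CPM in the liver knockout, a change of -4.28 ± 0.61 (adjusted p = 0.000386), and the difference was 5.29 ± 0.81 (adjusted p = 0.0217). Cyp3a13, a cytochrome P450, was at 187 ± 47.3 CPM in the floxed control and 72.7 ± 2.31 CPM in the liver knockout, a change of -1.36 ± 0.26 (adjusted p = 0.00501), and the difference was 2.16 ± 0.36 (adjusted p = 0.0298). In the global knockout their changes of 1.02 ± 0.54 (adjusted p = 0.358) and 0.80 ± 0.25 (adjusted p = 0.072) did not pass. Each of the 10 named calls of a difference was lost without at least 6 of the 12 libraries in that test (adjusted p up to 0.109 to 0.152). With single libraries left out, 0 to 45 genes passed, 0 without WT replicate 1 or 2, F replicate 2 or 3, or LKO replicate 2 or 3 (where 1263 to 1802 genes had an unadjusted p under 0.05). The count was 1 without KO replicate 2, 8 without WT replicate 3, 5 without KO replicate 3, 6 without LKO replicate 1 and 45 without F replicate 1.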

How the data were processed

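Liver RNA-seq libraries of 4 genotypes and 2 circadian times, 3 per group, were deposited as whole-series tables. Of the deposited tables, 1 gives estimated counts without normalization and 1 gives TPM values. The authors' deposited comparison table gives log2 fold changes and raw and adjusted p-values. Per the submitters' processing notes, the tools were StringTie 1.3.1, HISAT2 2.2.1 and fastp 0.23.2, and the build was GRCm39. No label names the annotation release or whether counting used strand, so reads of overlapping or antisense genes may not be separable. Low counts piled up at multiples of 4 (1.25 to 1.35 times their neighbours in the 6 libraries).

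Estimated counts, whole numbers as deposited, were analysed in edgeR 4.0.16 (R 4.3.3): low counts were removed by filterByExpr (8 groups, at least 10 counts, 15 in total), followed by TMM scaling and 1 robust quasi-likelihood model of 8 group means over all 24 libraries, which share 1 estimate of the spread. Knockout minus wild type at CT14, its difference from CT2 and its difference from the liver knockout were tested, with Benjamini-Hochberg adjustment over all 20514 genes and a threshold of 0.05. SE is the absolute log2 fold change divided by the square root of F. Floors are 3 counts per library and cover counting error only. Floors and the counting interval take each estimated count as 1 read, which the pile-up at multiples of 4 leaves uncertain. Alternatives used DESeq2 1.42.0, limma 3.58.1 on log2(TPM + 1) or log2(TPM + 0.1), other filters, scalings and library sets, a replicate block and left-out libraries. The scripts were tested on simulated data. Symbols came from the authors' deposited table for 15453 tested genes, and 4419 others were found only in the reference's gene names, while 642 had none.

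The members and the 45 gene lists (806 of 811 entries tested) were chosen with earlier results of these data known. Named genes were all 20 core clock genes and the 12 largest changes per direction among called genes without overlap and at 1 CPM or more in the higher group. Further names were up to 4 called genes per direction of each list by p, or the member with the smallest p where none was called, and the 6 smallest p per direction in each test of a difference. Some genes that this rule names are not reported here.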

Additional observations from a re-analysis of the deposited data

Results flagged for a closer look

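Each value here is a difference that itself passed edgeR's test (adjusted p under 0.05), so that the global knockout effect at CT14 differed from the effect at CT2 or from the liver knockout effect at CT14. Groups of 3 libraries were too small for a test of single outlying samples, and each library of the compared groups was left out in turn instead. Values are differences of log2 fold changes.

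For the CT14 effect minus the CT2 effect, the core clock genes gave 7.44 (Npas2), 2.39 (Bmal1), -1.02 (Cry2), -1.95 (Nr1d2), -3.11 (Tef), -4.01 (Per2), -4.65 (Per3), -6.12 (Dbp) and -8.61 (Ciart). The clock-linked genes Usp2 and Wee1 gave -5.51 and -2.84. Among metabolic genes the differences were 2.62 (Insig2), 2.49 (Hmgcs1), 1.59 (Hsd3b7), 1.58 (Abcb11) and 1.299 (Plin2) upwards, and -5.15 (Thrsp), -4.13 (Cyp2a5), -4.00 (Lpin1), -2.31 (Pklr), -2.01 (Gys2) and -1.70 (Slc37a4) downwards. Stress and signalling genes gave 2.204 (Cdkn1a), 1.79 (Atf5), 1.16 (Stat5b) and -2.48 (Fkbp5). The remaining genes gave 6.89 (Dhrs9), 5.44 (Gm11454), 4.84 (3930402G23Rik), 4.74 (Loxl4), 3.57 (Mboat1), 2.85 (Asap2), 1.97 (Eps8l2) and -3.88 (Hcn3). Besides Bmal1, Cry2 and Nr1d2, the calls of Dhrs9 (adjusted p up to 0.135), Cyp2a5 (0.0750), Hmgcs1 (0.157), Atf5 (0.0743), Stat5b (0.102) and Cdkn1a (0.131) were each lost without at least 4 of the 12 WT and KO libraries, WT CT14 replicate 3 and KO CT14 replicate 3 among these for Cyp2a5, Hmgcs1, Atf5, Stat5b and Cdkn1a, and WT CT14 replicate 3 for Dhrs9.

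For the global knockout effect minus the liver knockout effect, the differences were 10.77 (Tmc5), 5.29 (Tff3), 3.91 (Mboat1), 3.87 (Acnat2), 2.75 (Lbp), 2.59 (Slc3a1) and 2.16 (Cyp3a13), and -2.56 (Usp2), -2.09 (Ltbp4) and -1.96 (Timp3). For Tff3 and Cyp3a13 the effect that passed was a fall in the liver knockout. These 2 knockouts have controls from different lines, and line and knockout type cannot be told apart in this difference.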

How the results depend on the processing

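Of the 136 named genes that were called, 90 kept the call when each of the 6 libraries was left out in turn and 84 under every alternative, and 0 reversed. Fitted to the 6 CT14 libraries alone, Dhrs9, Kcnk10, Acaa1b, Ppp1r3c, Asns and Nat8f5 lost calls that held without any single library. For knockout against wild type, the 1089 calls became 1721 with DESeq2, and 632 (without WT replicate 2) to 902 with a library left out. The other settings gave 878 to 1397 calls. On log2(TPM + 1), limma called 1397 genes, of which 75.7% were higher (77.9% with a pseudocount of 0.1), against 59.4% in edgeR, with the median of all genes at 0.08 (0.17). With both, lipogenesis held 2 falls instead of 7. On log2(TPM + 1), the share of higher calls was 46.9% against 62.8% for the difference between times, and 41.2% against 80% for that from the liver knockout.

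For the difference between times, the 164 calls became 388 with DESeq2 and 101 (without WT CT14 replicate 2) to 158 with a library left out. For the difference from the liver knockout, the 15 calls became 208 with DESeq2, 5 with limma on log2(TPM + 0.1) and 0 to 45 with a library left out. Leaving out CT2, F and LKO libraries was added after the data had been seen.

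With the replicate number as a block, 983 genes were called in place of 1089, 130 in place of 164 and 0 in place of 15 (edgeR, 1295 with an unadjusted p under 0.05). Same-numbered knockout and wild-type libraries did not deviate together (correlations -0.028, 0.057 and 0.011 over 3 pairs), and the numbers were not taken to pair them; not every library correlated best with its own number. Low counts piled up at multiples of 4, which limits the precision known for weakly expressed genes; counts divided by 4 gave 1199 calls.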

Other observations

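Among the genes with the smallest p-values, several stand in none of the groups above and were chosen after their values were seen. Lpl, lipoprotein lipase, which adult hepatocytes express at low levels, was at 15.7, 10.8 and 8.25 CPM in wild type and 265, 197 and 163 CPM in the knockout (4.17 ± 0.40, adjusted p = 1.95e-06) at CT14 and changed by 3.67 ± 0.39 (adjusted p = 6.67e-05) at CT2 and by 4.40 ± 0.41 (adjusted p = 2.16e-06) in the liver knockout. Tox2, an HMG-box transcription factor, was at 0.361, 0.25 and 0.245 CPM in wild type and 9.66, 8.47 and 10.5 CPM in the knockout (5.05 ± 0.35, adjusted p = 3.7e-08), and changed by 3.70 ± 0.33 (adjusted p = 5.79e-06) at CT2. Cd9, a tetraspanin of the cell surface, was at 13.8, 10.1 and 12.2 CPM in wild type and 48.2, 53.7 and 68.5 CPM in the knockout (2.24 ± 0.18, adjusted p = 1.84e-07). All 3 knockout libraries lay above all wild-type libraries for Lpl, Tox2 and Cd9.

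Of the falls, Foxo3, a transcription factor restrained by insulin signalling, was at 72.4, 79.8 and 74.8 CPM in wild type and 26.3, 27.3 and 28.5 CPM in the knockout (-1.47 ± 0.14, adjusted p = 1.13e-06), with little spread in either group. St3gal5, the synthase of ganglioside GM3, was at 212, 316 and 264 CPM in wild type and 64.5, 62.8 and 70.0 CPM in the knockout (-2.01 ± 0.18, adjusted p = 6.09e-07). Nrep was at 43.3, 38.5 and 35.5 CPM in wild type and 1.63, 2.68 and 2.26 CPM in the knockout (-4.16 ± 0.39, adjusted p = 1.13e-06), and Homer2, a scaffold protein, at 71.0, 72.8 and 75.6 CPM in wild type and 18.0, 25.02 and 17.1 CPM in the knockout (-1.87 ± 0.18, adjusted p = 1.82e-06). At CT2 Foxo3 was at 28.1 ± 1.05 CPM in wild type and 27.5 ± 5.95 CPM in the knockout and St3gal5 at 53.9 ± 5.61 CPM in wild type and 47.6 ± 6.86 CPM in the knockout, near the knockout levels of CT14.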
